A study of Mus musculus with 6 samples.

Results

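The autophagy machinery was examined in eWAT, the white fat pad that lies next to the epididymis, as 40 genes chosen by name out of the 54532 genes in the count table. The genes cover the steps from the kinase complex that starts autophagosome formation to the receptors that bind cargo, with the transcription factors TFEB and TFE3. RNA-seq libraries were compared from 3 samples of cachectic mice, which had been inoculated under the skin with LLC cells (Lewis lung carcinoma, a murine tumor line), and 3 samples of control mice without cachexia. All samples were from the C57BL/6 strain, and per the methods of the study the mice were male, 6 to 10 weeks old when obtained, and the tissue was harvested on day 21 after inoculation. A tumor-bearing mouse was called cachectic after losing more than 20% of its body weight, so the cachectic group was selected by weight loss, and tumor, weight loss and any change in feeding cannot be told apart in this design. The sources used here do not state whether each sample came from a single mouse, and p-values measure the spread between these samples.

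Macroautophagy encloses cytoplasm, damaged mitochondria or protein aggregates in a double membrane, the autophagosome, which fuses with the lysosome for digestion. The ULK1 kinase complex starts the process, a class III PI3-kinase marks the membrane with PI3P, and a ubiquitin-like conjugation system attaches ATG8 proteins (LC3 and GABARAP) to it, to which cargo receptors bind. In adipose tissue autophagy is known for its part in adipocyte differentiation, mitochondrial turnover and lipid breakdown. Transcript levels do not measure the flow of cargo to the lysosome, in which ATG8 proteins and several receptors are themselves digested.

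Values are given as CPM, counts scaled to a common TMM-normalized library size, and changes as log2 fold changes of cachexia over control from edgeR's quasi-likelihood test, with Benjamini-Hochberg adjustment over 16003 genes. An adjusted p-value under 0.05 was taken as a call. In bulk tissue, fewer cells of a type and less RNA per cell cannot be told apart. The total count per library lay between 18475204 and 18855546 in control samples and between 14928766 and 17278966 in cachexia samples, so each cachexia library was shallower than each control library. Their TMM factors ranged from 0.937 to 1.07. The leading principal component of log2 CPM held 55.7% of the variance. The label of adipose tissue was checked against 10 adipocyte markers such as Adipoq and Fabp4, which summed to between 27355 and 40759 CPM in control and between 27032 and 38281 CPM in cachexia samples. Within these sums Pnpla2 and Cidec rose (log2 fold changes of 1.08 and 0.87) and Lep fell by 3.14, while Plin1, with a mean of 2074 CPM in control and 767 CPM in cachexia samples, did not overlap between the groups (edgeR adjusted p = 0.057). Epididymal epithelium markers summed to at most 1.40 CPM in any library.

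Because TFEB and TFE3 bind the CLEAR element, whose core is the E-box CACGTG, and FoxO factors also act on autophagy genes, the promoters of the members were searched for these letters. RefSeq promoters of build GRCm38.p6, from 250 bases before to 50 bases after an annotated start site, matched 33 of the 40 genes. On both strands, CACGTG occurred in the promoters of 5 of them (Atg3, Atg5, Atg7, Atg14 and Bnip3), against 8.09% of all 27025 genes with a promoter. The longer TCACGTG, which contains CACGTG and so overlaps it, occurred in Atg3, Atg7 and Atg14, against 4.29% of all genes. GTAAACA, the FoxO element, occurred in 0 of the 33, against 4.05% of all genes, which says only that these letters are not in these windows. The promoters of the E-box genes Bnip3 and Atg14, whose expression rose, and of Atg3, which did not pass the test, are shown with capitals marking the matches. Bnip3 is at chr7:138909457-138909756 (minus strand), Atg14 at chr14:47568385-47568684 (minus strand) and Atg3 at chr16:45158579-45158878 (plus strand), each written 5′ to 3′ on the strand of its gene.
Bnip3: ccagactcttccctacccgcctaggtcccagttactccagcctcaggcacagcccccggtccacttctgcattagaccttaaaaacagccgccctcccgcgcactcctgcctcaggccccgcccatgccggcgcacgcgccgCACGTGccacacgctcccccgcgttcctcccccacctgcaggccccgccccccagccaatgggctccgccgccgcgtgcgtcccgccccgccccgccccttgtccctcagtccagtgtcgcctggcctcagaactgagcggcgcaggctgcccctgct
Atg14: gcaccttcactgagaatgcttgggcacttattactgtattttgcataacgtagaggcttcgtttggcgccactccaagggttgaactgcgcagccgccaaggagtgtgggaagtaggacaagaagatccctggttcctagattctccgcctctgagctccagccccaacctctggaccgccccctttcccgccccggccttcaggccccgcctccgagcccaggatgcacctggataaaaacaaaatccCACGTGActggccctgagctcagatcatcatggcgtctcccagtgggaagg
Atg3: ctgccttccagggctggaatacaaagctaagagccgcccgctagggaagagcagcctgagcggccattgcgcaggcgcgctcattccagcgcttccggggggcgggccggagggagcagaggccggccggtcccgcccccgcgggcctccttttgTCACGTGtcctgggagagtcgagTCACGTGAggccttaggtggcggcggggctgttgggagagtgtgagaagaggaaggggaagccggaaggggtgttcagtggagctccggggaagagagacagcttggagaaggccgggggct
The match in Bnip3 begins 108 bases before the start site and that in Atg14 at the last base before it, while Atg3 has a pair of matches beginning 94 and 71 bases before the start site. The start site used for Atg14 lies 2215 bases inside the gene as the count table bounds it, and that of Atg7 lies 27999 bases inside, so the Atg7 window is not shown. Of the 5 genes with an E-box, 2 rose and 3 did not pass the test.

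All 40 genes had enough counts to be tested. In cachexia 11 of them rose, 1 fell and 28 did not pass the test, whereas of all 16003 tested genes 9% rose and 8.63% fell. The values of the groups did not overlap for 24 members, 18 of them higher in every cachexia sample and 6 lower, against 40.5% of all tested genes in either direction. The median log2 fold change was 0.15 over the members and -0.0031 over all tested genes, and 28 of the 40 had a positive value. By step, all 6 cargo receptors among the members and 2 of the 5 ATG8 genes rose. Of the 11 conjugation genes, 0 passed the test in either direction. In summed expression, the 12 called genes went from between 1549 and 1634 CPM in control to between 2642 and 3092 CPM in cachexia samples, and the 28 others from between 1417 and 1504 to between 1538 and 1583 CPM. The summed level of the genes that did not pass thus differed by 1.07-fold between group means, against 1.83-fold for the called genes, a description that follows in part from how they were called.

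**Figure D1:**
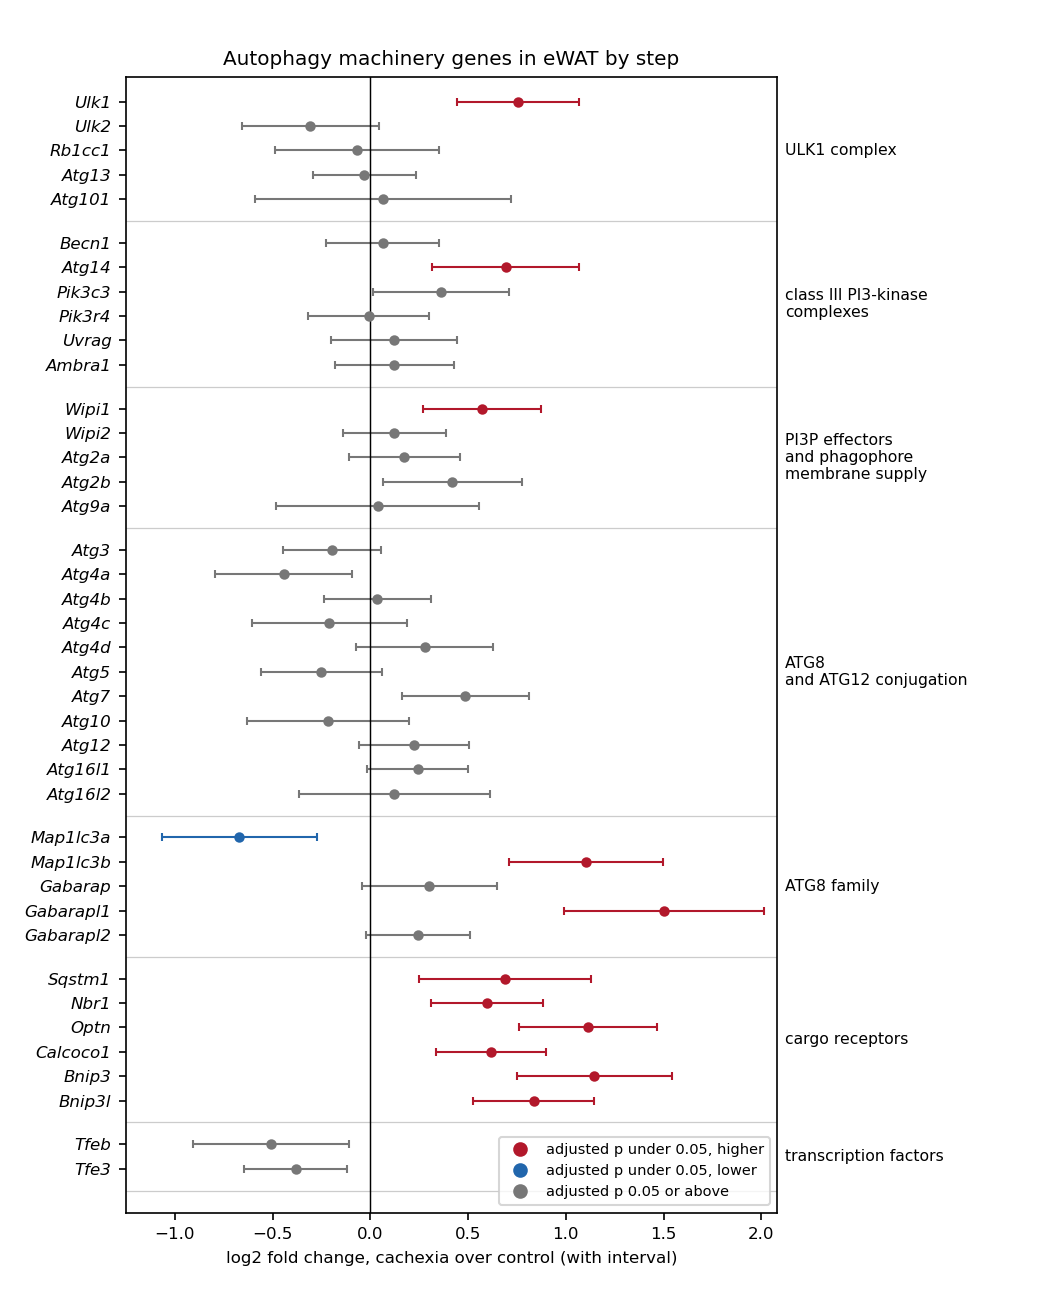
Log2 fold change of cachexia over control for the 40 autophagy machinery genes, grouped by step, with unadjusted 95% intervals from edgeR's quasi-likelihood fit (3 samples per group). The 11 red points (adjusted p under 0.05, higher) include all 6 cargo receptors, the blue point is Map1lc3a, and the 11 conjugation genes are all grey.

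Cargo receptors carry an ATG8-binding motif and tether what is to be degraded to the growing membrane. Each of the 6 receptors among the members rose, with log2 fold changes between 0.60 and 1.15. For each the lowest cachexia sample lay above the highest control sample. Of 16 cargo receptors outside the members, given further below, 1 rose, against 9% of all tested genes. The summed expression of the 6 members was 1016 ± 32.1 (SD, n = 3) CPM in control and 1836 ± 122 (SD, n = 3) CPM in cachexia samples.

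Bnip3 and Bnip3l encode related receptors in the outer mitochondrial membrane that direct mitochondria to autophagosomes and are known as hypoxia-responsive genes. Bnip3 (chromosome 7, 138890836 to 138909519) was measured at 283, 294 and 274 CPM in control replicates 1, 2 and 3, and at 524, 640 and 721 CPM in cachexia replicates 1, 2 and 3. The log2 fold change of Bnip3 was 1.15 (standard error 0.172, edgeR adjusted p = 0.006), a 2.21-fold rise. Bnip3l (chromosome 14, 66985239 to 67008877) was at 158, 144 and 172 CPM in control and at 280.5, 284 and 281 CPM in cachexia samples. The cachexia samples lay within a few CPM of each other, and the log2 fold change was 0.84 (standard error 0.134, edgeR adjusted p = 0.00763). A pseudogene copy, Bnip3l-ps on chromosome 12, held counts equal to between 4.16% and 6.22% of those of Bnip3l in control and between 7.75% and 8.30% in cachexia samples, so reads can be split between them.

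Optn encodes optineurin, a receptor for ubiquitin-tagged mitochondria and bacteria. Its expression (chromosome 2, 5020642 to 5064051) was 35.3, 37.3 and 44.7 CPM in control and 71.7, 91.0 and 91.4 CPM in cachexia samples, all cachexia samples being above all control samples. The log2 fold change was 1.11 (standard error 0.153, edgeR adjusted p = 0.00455), the smallest adjusted p-value among the 40 genes.

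Sqstm1 encodes p62, which gathers ubiquitinated proteins, and Nbr1 its partner in the same aggregates. Sqstm1 (chromosome 11, 50199366 to 50210827) stood at 299, 291 and 322 CPM in control and at 487, 595 and 388 CPM in cachexia samples, the widest spread in the cachexia group among these receptors relative to its mean. For Sqstm1 the log2 fold change was 0.69 (standard error 0.189, edgeR adjusted p = 0.0428). Nbr1 (chromosome 11, 101552149 to 101581951) was at 144, 146 and 150.3 CPM in control and at 209.7, 224 and 232 CPM in cachexia samples. For Nbr1 the log2 fold change was 0.60 (standard error 0.123, edgeR adjusted p = 0.0174). Calcoco1, a receptor for the turnover of endoplasmic reticulum and Golgi membranes, was at 83.8, 80.9 and 89.7 CPM in control and at 141, 125 and 124 CPM in cachexia samples. For Calcoco1 the log2 fold change was 0.62 (standard error 0.122, edgeR adjusted p = 0.0148).

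The calls of Bnip3, Bnip3l and Optn held with any of the 6 samples left out, whereas those of the other receptors did not. Sqstm1 missed the threshold without control replicate 1, 2 or 3 or cachexia replicate 1 or 2 (edgeR adjusted p between 0.0878 and 0.139), while Nbr1 and Calcoco1 missed it without control replicate 2 (0.077 and 0.0716) or control replicate 3 (0.0872 and 0.0657). Whether strand was used in counting is not given in the sources used here, and 17.3% of the exon length of Sqstm1 is shared with Mrnip and 22.3% of that of Bnip3 with Gm45507 (0 counts) on the other strand.

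**Figure D2:**
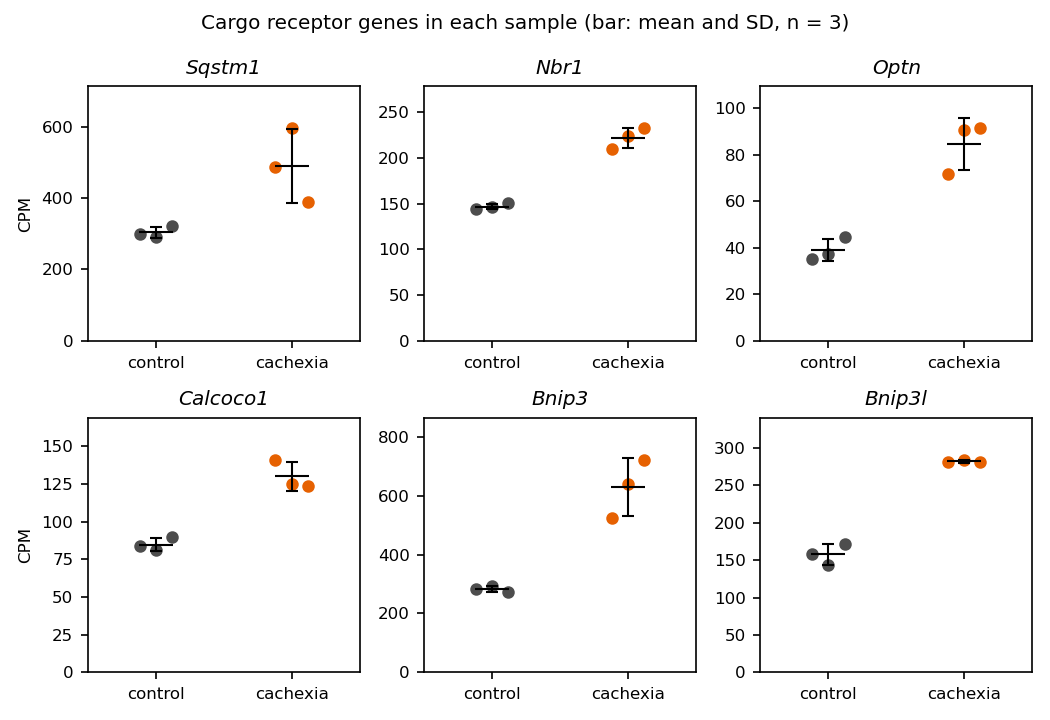
CPM of the 6 cargo receptor genes in each sample (points, 3 control and 3 cachexia), with the group mean and SD as bars and each vertical axis starting at 0. In every panel the 3 cachexia samples sit above the 3 control samples, from 71.7 to 91.4 CPM against 35.3 to 44.7 CPM for Optn.

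The ATG8 family encodes the small ubiquitin-like proteins that are lipidated on the autophagosome and hold the receptors there. Its members moved in different directions, with Gabarapl1 and Map1lc3b higher and Map1lc3a lower in cachexia. Gabarapl1 (chromosome 6, 129533160 to 129542346) was measured at 135, 112 and 119.8 CPM in control and at 264, 317 and 458 CPM in cachexia samples. Its log2 fold change of 1.50 (standard error 0.221, edgeR adjusted p = 0.00566) was the largest among the 40 genes, a 2.83-fold rise. Map1lc3b, which encodes the LC3B protein commonly used as a marker of autophagosomes, was at 202, 212 and 218 CPM in control and at 394, 421 and 543 CPM in cachexia samples (chromosome 8, 121590361 to 121598760). The log2 fold change was 1.10 (standard error 0.170, edgeR adjusted p = 0.00656). For both genes cachexia replicate 3 was the highest and cachexia replicate 1 the lowest of the cachexia samples, and all 3 lay above the control range. Both calls held with any of the 6 samples left out.

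Map1lc3a, which encodes the paralog LC3A, fell from 123.5, 113.5 and 118 CPM in control to 93.5, 62.9 and 66.7 CPM in cachexia samples (chromosome 2, 155276297 to 155278073). For Map1lc3a the log2 fold change was -0.67 (standard error 0.170, edgeR adjusted p = 0.0334), the only called fall among the 40 genes. The call was lost without control replicate 1, 2 or 3 or cachexia replicate 2 or 3, with log2 fold changes between -0.70 and -0.56 and edgeR adjusted p-values between 0.0736 and 0.108. Gabarap was at 273, 249 and 271 CPM in control and at 302, 305 and 371 CPM in cachexia samples, a log2 fold change of 0.30 with a 95% interval from -0.04 to 0.65 (edgeR adjusted p = 0.197). Gabarapl2 was at 40.2, 38.1 and 40.5 CPM in control and at 49.7, 43.6 and 47.5 CPM in cachexia samples, a log2 fold change of 0.24 with an interval from -0.02 to 0.51 (edgeR adjusted p = 0.174). The values of these 2 genes did not overlap between the groups, but neither passed the test.

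Per gene length, as deposited FPKM, the order of the family differed between the groups. In control samples Gabarap was highest at a mean of 142 FPKM, followed by Map1lc3a (98.9), Gabarapl1 (60.0), Map1lc3b (27.7) and Gabarapl2 (16.8), and no 2 neighbours in this order overlapped in their sample values. In cachexia samples Gabarap (173) and Gabarapl1 (168) overlapped, as did Map1lc3a (61.5) and Map1lc3b (58.8), and Gabarapl2 was lowest at 19.7 FPKM. As a share of the summed FPKM of the 5 genes, Gabarapl1 went from 17.4% ± 0.932 (SD, n = 3) in control to 34.5% ± 5.05 (SD, n = 3) in cachexia samples, and Map1lc3a from 28.7% ± 0.364 (SD, n = 3) to 13.1% ± 4.10 (SD, n = 3). These shares depend on the length assigned to each gene, 7517 bases for Map1lc3b against 1181 for Map1lc3a, and 28.3% of the exon length of Gabarapl1 is shared with 1700101I11Rik on the other strand, which had 58 counts over all samples.

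**Figure D3:**
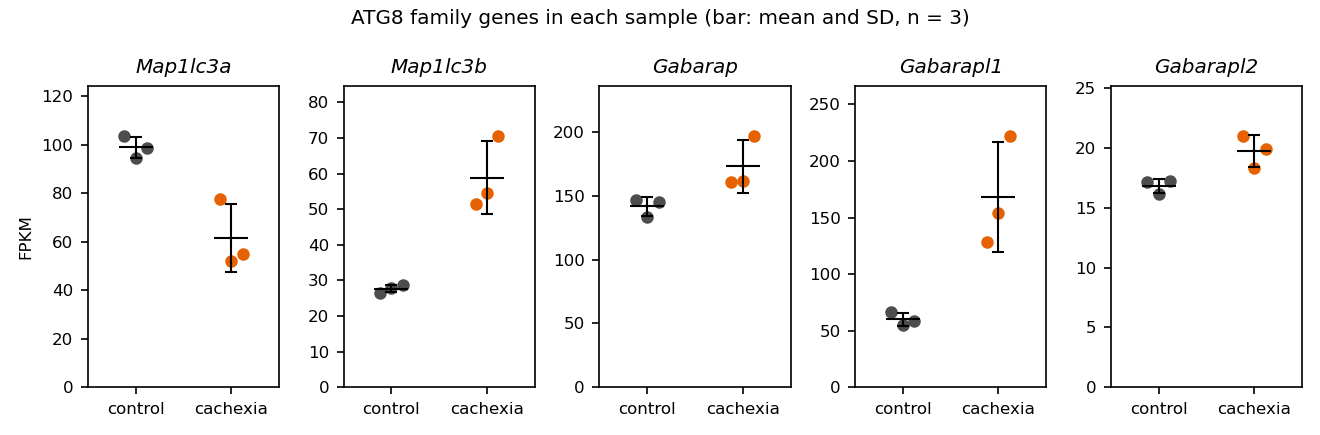
FPKM of the 5 ATG8 family genes in each sample (points), with the group mean and SD as bars and each vertical axis starting at 0. Gabarapl1 rose from a mean of 60.0 to 168 FPKM and Map1lc3b from 27.7 to 58.8 FPKM, whereas Map1lc3a fell from 98.9 to 61.5 FPKM.

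In the ULK1 complex, which receives the signals of mTORC1 and AMPK, the kinase gene Ulk1 rose and the other 4 genes did not pass the test. Ulk1 (chromosome 5, 110784488 to 110810097) was at 55.6, 62.4 and 61.5 CPM in control and at 87.0, 110.2 and 105 CPM in cachexia samples, with no overlap between the groups. Its log2 fold change was 0.75 (standard error 0.135, edgeR adjusted p = 0.0106), and without control replicate 3 it missed the threshold (0.77, edgeR adjusted p = 0.0562). Ulk2, which encodes the related kinase, was at 95.9, 126 and 125 CPM in control and at 98.7, 97.8 and 84.1 CPM in cachexia samples. The groups overlapped through control replicate 1, and the log2 fold change was -0.31 (95% interval from -0.66 to 0.04, edgeR adjusted p = 0.194). Rb1cc1, the FIP200 scaffold, Atg13 and Atg101, which bind the kinases, had log2 fold changes of -0.07, -0.03 and 0.06. Their signs changed in some of the other settings, which include leaving out a sample. Cachexia replicate 3 had the highest Atg101 value, 30.0 CPM against 14.8 to 21.9 CPM in the other samples.

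Among the genes of the class III PI3-kinase complexes, Atg14 rose. Its protein, with Beclin 1, directs the kinase to the sites of autophagosome formation, while UVRAG belongs to the alternative complex of endosomes. Atg14 (chromosome 14, 47540893 to 47570649) was at 16.2, 13.1 and 14.2 CPM in control and at 22.8, 26.9 and 20.5 CPM in cachexia samples, and the log2 fold change was 0.69 (standard error 0.163, edgeR adjusted p = 0.0263). The call was lost without control replicate 2 or 3 or cachexia replicate 1 or 2, with edgeR adjusted p-values between 0.0589 and 0.109. Pik3c3, the catalytic subunit VPS34, was at 40.9, 40.3 and 36.8 CPM in control and at 49.6, 59.7 and 42.4 CPM in cachexia samples, and its log2 fold change of 0.36 did not pass (95% interval from 0.01 to 0.71, edgeR adjusted p = 0.133). Becn1, Pik3r4, Uvrag and Ambra1 had log2 fold changes between -0.01 and 0.12, and their groups overlapped. In Becn1 43.9% of the exon length is shared with Cntd1 on the other strand, which had 35 counts over all samples, and in Uvrag 17.6% with Gm45187, which had 380.

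The proteins of the next step read PI3P or supply membrane. Wipi1, a PI3P-binding propeller protein, rose from 42.1, 42.8 and 50.4 CPM in control to 67.2, 72.3 and 61.2 CPM in cachexia samples (chromosome 11, 109573331 to 109611967). Its log2 fold change was 0.57 (standard error 0.130, edgeR adjusted p = 0.0236), and the call was lost without control replicate 1, 2 or 3 or cachexia replicate 1 or 2 (edgeR adjusted p between 0.056 and 0.094). Its paralog Wipi2, which recruits the conjugation complex, was at 91.6, 87.9 and 95.0 CPM in control and at 100.5, 94.3 and 104 CPM in cachexia samples, a log2 fold change of 0.12 (95% interval from -0.14 to 0.38, edgeR adjusted p = 0.490). The lipid-transfer genes Atg2a and Atg2b had log2 fold changes of 0.17 and 0.42 (edgeR adjusted p = 0.356 and 0.0992), with values of Atg2b from 40.9 to 53.2 CPM in control and from 57.4 to 73.3 CPM in cachexia samples. Atg9a, the transmembrane lipid scramblase, ranged from 21.3 to 29.5 CPM in control and from 19.5 to 34.0 CPM in cachexia samples, and its log2 fold change of 0.04 changed sign with the processing. In Atg9a 31.8% of the exon length is shared with Gm29253 on the same strand, which had 0 counts over all samples.

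The conjugation system, in which ATG7 acts as the E1-like enzyme, ATG3 and ATG10 as E2-like enzymes, ATG12, ATG5 and ATG16L1 as the complex that attaches ATG8 to lipid, and the ATG4 proteases trim and release ATG8, held no called gene among 11. Log2 fold changes lay between -0.44 (Atg4a) and 0.48 (Atg7), with a median of 0.04, and 95% intervals extended from -0.79 to 0.81. Atg7 was closest to the threshold, at 52.2, 59.8 and 63.5 CPM in control and at 91.7, 81.7 and 71.9 CPM in cachexia samples (edgeR adjusted p = 0.0504). The groups did not overlap for Atg7, and it passed the threshold in 5 of the 15 other settings, among them DESeq2 (adjusted p = 0.0235). Atg4a was at 23.3, 22.5 and 19.3 CPM in control and at 14.5, 17.7 and 15.6 CPM in cachexia samples (edgeR adjusted p = 0.0816). Atg3, whose promoter with a pair of E-boxes is shown above, was at 61.9, 64.0 and 67.9 CPM in control and at 57.2, 56.3 and 55.7 CPM in cachexia samples, a log2 fold change of -0.20 (edgeR adjusted p = 0.241). Of the other genes, Atg4d, Atg12, Atg16l1, Atg16l2 and Atg4b had values between 0.04 and 0.28, and Atg5, Atg10 and Atg4c between -0.25 and -0.21. By non-overlap of the groups, 3 of the 11 genes were higher, 3 lower and 5 overlapped, and 2 had an unadjusted p-value under 0.05 in edgeR's test. DESeq2 called 1 of them, Atg7, and limma-voom called 0. In Atg4d 19.3% of the exon length is shared with Kri1 on the other strand, which had 1213 counts over all samples.

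Tfeb and Tfe3 encode transcription factors that mTORC1 holds in the cytoplasm and that drive lysosomal and autophagy genes when released. Tfeb was at 24.5, 21.4 and 22.1 CPM in control and at 18.3, 16.8 and 12.7 CPM in cachexia samples, a log2 fold change of -0.51 (95% interval from -0.91 to -0.11, edgeR adjusted p = 0.0796). Tfe3 was at 51.7, 57.1 and 55.1 CPM in control and at 45.0, 41.2 and 39.6 CPM in cachexia samples, a log2 fold change of -0.38 (95% interval from -0.65 to -0.12, edgeR adjusted p = 0.0556). All cachexia values of both genes lay under all control values, but neither passed the test with edgeR. Tfe3 passed in 2 of the 15 other settings, which were DESeq2 and a minimum of 10 counts in every sample. Their transcript level does not show where the proteins were.

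Ratios between paralogous members within a sample do not depend on library scaling. In 7 pairs compared by a two-sided exact permutation test on log2 ratios of CPM, 5 did not overlap between the groups, and the smallest p-value that 3 against 3 samples allow is 0.1 (0.14 after Benjamini-Hochberg adjustment over the 7 pairs), so no pair could pass 0.05. The log2 ratio of Map1lc3b to Map1lc3a went from 0.83 ± 0.107 (SD, n = 3) in control to 2.61 ± 0.486 (SD, n = 3) in cachexia samples, a difference of 1.78 (exact permutation p = 0.1). For Gabarapl1 to Gabarapl2 the difference was 1.22 and for Ulk1 to Ulk2 it was 1.04, each larger than the spread within either group. Ulk2 was the more abundant transcript of its pair in CPM in every control sample, with log2 ratios from -1.02 to -0.78, and the ratio was -0.18, 0.17 and 0.32 in cachexia samples. Wipi1 to Wipi2 differed by 0.45 and Atg2a to Atg2b by -0.24 (exact permutation p = 0.1 for each). Bnip3 to Bnip3l differed by 0.30 and Atg16l1 to Atg16l2 by 0.12, and for these pairs the groups overlapped (exact permutation p = 0.2 and 0.5).

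**Figure D4:**
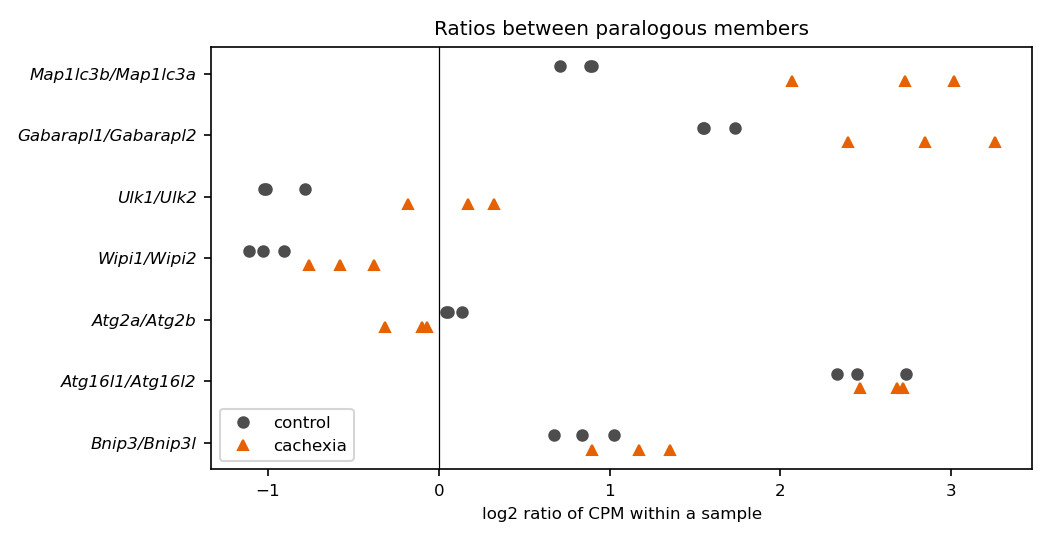
Log2 ratio of CPM between paired members within each sample (circles, 3 control; triangles, 3 cachexia), where 0 means equal CPM. Map1lc3b to Map1lc3a shows the widest separation, with control samples between 0.71 and 0.90 and cachexia samples between 2.07 and 3.02, whereas Bnip3 to Bnip3l and Atg16l1 to Atg16l2 overlap.

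Of 125 other genes of the pathway in 6 lists, 17 rose and 7 fell, with a median log2 fold change of 0.0045, where 9% of all tested genes rose and 8.63% fell. The list of other transcriptional regulators of autophagy held the highest share of calls, with 5 of 8 genes higher and 1 lower. Depp1, a FoxO target gene, was measured at 47.1 ± 9.36 CPM (SD, n = 3) in control and at 405 ± 115 CPM (SD, n = 3) in cachexia samples, and its log2 fold change was 3.10 (standard error 0.270, edgeR adjusted p = 0.00129). Mitf, a relative of TFEB, rose by 1.30 on the log2 scale, with means of 19.0 ± 0.833 CPM (SD, n = 3) in control and 47.0 ± 11.2 CPM (SD, n = 3) in cachexia samples. Zkscan3, known as a repressor of autophagy genes, rose by 1.07, with means of 59.7 ± 4.34 CPM (SD, n = 3) and 125 ± 23.7 CPM (SD, n = 3). Trp53inp2 (DOR), a nuclear cofactor that also binds ATG8 proteins, went down from 604 ± 99.2 CPM (SD, n = 3) in control to 133 ± 5.88 CPM (SD, n = 3) in cachexia samples, and its log2 fold change was -2.19 (standard error 0.174, edgeR adjusted p = 0.000973). The other genes that rose, named after their values were seen, were Trp53inp1 and Foxo3, with log2 fold changes of 2.57 and 0.75. Trp53inp1 missed the threshold without control replicate 3 (edgeR adjusted p = 0.0508), and Foxo3 without any of the 3 control replicates or without cachexia replicate 2 or 3 (edgeR adjusted p between 0.0578 and 0.109).

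Upstream of the ULK1 complex, 36 genes of mTORC1 and AMPK control held 6 that rose and 4 that fell (9% and 8.63% of all tested genes). Their median log2 fold change was -0.08, and 15 of the 36 had a positive value. Without control replicate 3 the counts were 3 and 1, and with library totals 2 fell. Ddit4 (REDD1), an inhibitor of mTORC1, stood at 31.7 ± 12.7 CPM (SD, n = 3) in control and at 251 ± 82.4 CPM (SD, n = 3) in cachexia samples, and its log2 fold change was 2.99 (standard error 0.357, edgeR adjusted p = 0.00306). Flcn, which encodes folliculin of the Rag GTPase pathway, and Sesn1, a sestrin that restrains mTORC1, had log2 fold changes of 1.23 and 1.03. The other genes that rose, named after their values were seen, were Sesn2 (0.91), Stk11 (0.82) and Prkag1 (0.74), a sestrin, the kinase LKB1 and a subunit of AMPK. The calls of these 3 genes were lost without control replicate 3 (edgeR adjusted p = 0.104, 0.0611 and 0.106), and those of Sesn2 and Prkag1 in 3 and 5 of the 15 other settings. Deptor, an mTOR-binding inhibitor, had means of 159 ± 41.7 CPM (SD, n = 3) in control and 64.5 ± 4.90 CPM (SD, n = 3) in cachexia samples, a log2 fold change of -1.30 (edgeR adjusted p = 0.00743). Lamtor1, a Ragulator anchor on the lysosome, and Rraga, a Rag GTPase, had log2 fold changes of -0.92 and -0.47, and the fourth gene to fall, Castor2 (-0.47), was named after its value was seen. Inhibitors of mTORC1 were thus found on both sides. The calls of Rraga and Castor2 were lost in 8 and 12 of the 15 other settings, and that of Lamtor1 without control replicate 3 (edgeR adjusted p = 0.0557).

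Downstream, the lysosome was measured by 30 genes of hydrolases and membrane proteins, of which 4 rose and 1 fell (9% and 8.63% of all tested genes), and 17 genes of the proton pump, of which 0 were called by edgeR and limma-voom and 2 by DESeq2 (1 in each direction), with 4 under an unadjusted edgeR p-value of 0.05. Npc1, a cholesterol exporter of the lysosome, had means of 49.2 ± 2.10 CPM (SD, n = 3) in control and 158 ± 73.3 CPM (SD, n = 3) in cachexia samples, a log2 fold change of 1.68 (edgeR adjusted p = 0.0126). The sialidase Neu1 and the protease gene Ctsz each had a log2 fold change of 1.02, and the fourth, Ctsf (0.69), was named after its value was seen. Npc1 missed the threshold without control replicate 3 (edgeR adjusted p = 0.0562), and Ctsf without control replicate 2 or 3 (edgeR adjusted p = 0.0823 and 0.0887). The median log2 fold change was -0.04 for the hydrolases and membrane proteins and 0.01 for the pump, whose genes ranged from -0.83 to 0.49.

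The median log2 fold change of 16 other cargo receptors was 0.20. Of them 1 rose (3 with library totals, 2 with DESeq2 and 0 without control replicate 2 or 3), against 9% of all tested genes. The gene was Retreg1 (FAM134B), a receptor for the turnover of endoplasmic reticulum, at 6.98 ± 4.05 (SD, n = 3) CPM in control and 52.2 ± 31.6 (SD, n = 3) CPM in cachexia samples, where its log2 fold change was 2.89 (standard error 0.558, edgeR adjusted p = 0.0137). Its call was lost without control replicate 2 or 3 (edgeR adjusted p = 0.0545 and 0.0611). Of 18 other genes of autophagosome formation and fusion, 1 rose and 1 fell, against 9% and 8.63% of all tested genes. Wdr45, a relative of Wipi1, rose by 0.53 on the log2 scale and Ykt6, a SNARE of autophagosome fusion, fell by 0.68. The call of Wdr45 was lost with any of the 6 samples left out (edgeR adjusted p between 0.0509 and 0.126), and that of Ykt6 without control replicate 3 (edgeR adjusted p = 0.0729). Exons are shared over 24.7% of the length of Wdr45 (Gm45208, 0 counts) and 18.7% of that of Lamtor1 (Lrrc51, 651 counts).

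**Figure D5:**
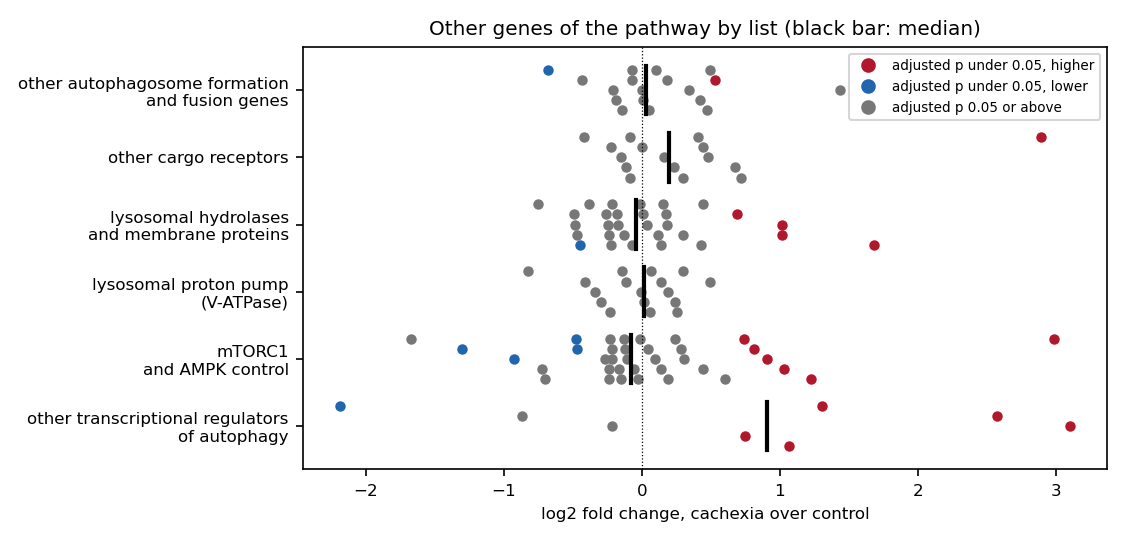
Log2 fold change of cachexia over control for 125 other genes of the pathway in 6 lists (each point a gene, vertical position within a list has no meaning), with the list median as a black bar. The list of other transcriptional regulators spans -2.19 to 3.10 with a median of 0.91, while the proton pump genes lie between -0.83 and 0.49 and hold no call.

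Markers of other cells differed between the groups, and their part in the autophagy results was not tested. All 6 erythroid markers rose, with a summed level between 252 and 451 CPM in control and between 1333 and 2855 CPM in cachexia samples, and BNIP3L is known for clearing mitochondria from maturing red cells. The erythroid sum was 2855, 1333 and 2555 CPM in cachexia replicates 1, 2 and 3, and Bnip3l was at 280.5, 284 and 281 CPM in them. Neutrophil markers went from between 32.4 and 48.9 CPM to between 251 and 713 CPM, with 8 of the 9 tested higher, and endothelial markers from between 1226 and 1321 CPM to between 1679 and 2775 CPM, with 2 of 6 higher. Fibroblast and progenitor markers went from between 5314 and 6049 CPM to between 2405 and 3314 CPM, with 4 of 7 lower and 1 higher, and no marker of these 4 lists was at 0 in all 6 samples. Summed macrophage markers overlapped, from 1540 to 1932 CPM in control and from 1271 to 1945 CPM in cachexia samples, with 1 of 10 higher and 1 lower. The adipocyte sums given above also overlapped, with 2 of 10 markers higher and 1 lower. B cell markers summed to between 416 and 524 CPM in control and to between 9.83 and 128 CPM in cachexia samples, with 1 of 5 lower. T cell markers went from between 8.37 and 16.3 CPM to between 5.24 and 7.98 CPM, with 1 of the 6 tested lower, and proliferation markers from between 22.0 and 40.5 CPM to between 5.95 and 15.1 CPM, with 2 of 4 lower. The summed mesothelial and skeletal muscle markers overlapped between the groups.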

How the data were processed

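Total RNA of 6 eWAT samples was sequenced as paired-end reads. The authors filtered the reads for quality, adapters and poly-N stretches, aligned them with Hisat2 and counted reads per gene with featureCounts (1.5.0-p3 per the labels), and deposited raw counts and, calculated from count and gene length, FPKM values. The labels name mm9, yet 99.93% of the deposited identifiers are in GENCODE M21 (GRCm38), 98.33% of these with the same start and end, as are 39 of the 40 members (not Atg12), so coordinates are those of the deposited files. Strand use in counting is not given in the sources used here. A deposited table of the authors' own DESeq2 comparison (fold changes, p-values and 6 columns of normalized values per sample) was not used.

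Raw counts of the 6 samples, grouped by their labels, were tested in edgeR 4.0.16 (R 4.3.3) with filterByExpr (minimum count 10), TMM normalization and the quasi-likelihood test, without covariates, with Benjamini-Hochberg adjustment over 16003 genes and a threshold of 0.05. The standard error is the log2 fold change divided by the square root of F. Paralog ratios used log2 CPM with a pseudocount of 0.5. Other settings were RLE factors, library totals, no filter, a minimum of 10 counts per sample, leaving out any of the 6 samples, limma-voom, limma 3.58.1 on log2 FPKM (pseudocount 1 or 0.1), DESeq2 1.42.0, the replicate number as a block, and a log2 fold change limit of 1. Totals of 14928766 to 18855546 counts and a biological coefficient of variation of 0.264 set the precision. No pair of samples had near-identical counts. Scripts were tested on simulated data.

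The members and all gene lists were chosen with earlier results of these data known. By rule, called members and the paralogs or members of their step were given in full, the others by step, and up to 3 genes per direction of each other list, except 1 gene that is not reported here. The settings for steps and other lists were added after seeing the data.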

Additional observations from a re-analysis of the deposited data

How the results depend on the processing

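Of the 12 called members, 5 passed the threshold in all 15 other settings of single genes (Bnip3, Bnip3l, Gabarapl1, Map1lc3b and Optn), and all 12 kept their direction in each. The groups did not overlap for any of the 12, so leaving out a sample could hardly reverse a direction. The number of members that rose, 11 as reported, was 7 with the replicate block and 4 with an absolute log2 limit of 1, and with a sample left out it lay between 5 (without control replicate 3) and 12. The number that fell, 1 as reported, was 2 with at least 10 counts in every sample, 2 with DESeq2 (Tfe3 in both), 0 with the log2 limit of 1, and 0 to 1 with a sample left out. Over all tested genes, 2821 calls became 1609 with the log2 limit of 1 and between 828 (without control replicate 3) and 2339 with a sample left out, where fewer samples were fitted. The labels do not say whether samples with the same replicate number share anything else. Deviations of same-numbered samples had correlations of 0.0103, -0.0211 and 0.012, and those of differently numbered samples lay between -0.0398 and 0.0435. These values cannot show that nothing was shared. The replicate block called 1881 genes.

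Of the members that did not pass, 7 changed sign. With a sample left out the log2 fold change ranged from -0.21 to 0.058 for Rb1cc1, from -0.066 to 0.021 for Atg13, from -0.34 to 0.24 for Atg101, from -0.0055 to 0.15 for Becn1, from -0.078 to 0.071 for Pik3r4, from -0.20 to 0.21 for Atg9a and from -0.036 to 0.078 for Atg4b. Library totals gave 0.022 for Atg13 and 0.045 for Pik3r4. For Atg101 the replicate block gave -0.0082, limma-voom -0.024 and log2 FPKM -0.015 (pseudocount 1) and -0.021 (pseudocount 0.1), and for Atg9a log2 FPKM (pseudocount 0.1) gave -0.0033. The cause of these changes was not tested. With another pseudocount or with deposited FPKM, the differences in paralog ratios moved by less than the spread between replicates. Leaving out a sample cannot move them by more than that spread, and the replicate block leaves them unchanged. Those settings therefore could not show whether the ratios are stable. The 17 genes chosen by rule from other lists kept their direction in all settings.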
